A study of Mus musculus with 24 samples.

Results

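The genes described here encode adipokines, the hormones and secreted proteins of fat tissue, and the receptors of leptin and adiponectin. They were the 10 genes listed by their symbols in the joined FPKM table, out of 24532 genes: *Lep*, *Lepr*, *Adipoq*, *Adipor1*, *Adipor2*, *Retn*, *Cfd*, *Apln*, *Rbp4* and *Rbp7*. The libraries came from bulk RNA of the liver, the inguinal white adipose tissue (iWAT), the gastrocnemius muscle (GM) and the hypothalamus, with 3 Ctrl and 3 LKO mice per tissue and 24 libraries in all. LKO mice carried Alb-Cre and Crif1flox/flox, so that Cre, driven by the albumin promoter, deleted *Crif1* in hepatocytes. Ctrl mice carried Crif1flox/flox without Cre. All were C57BL/6 mice of 8 weeks on chow, and the labels name no agent. The comparison asked whether a lesion made in hepatocytes was accompanied by changes of adipokine transcripts in distant fat and of their receptors in each tissue.

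Leptin is released by white adipocytes in proportion to the fat stored and acts on its receptor in the hypothalamus, where it restrains feeding through JAK2 and STAT3. Adiponectin is released by adipocytes as multimers and acts through the seven-transmembrane receptors AdipoR1 and AdipoR2, which are linked to AMPK and PPARα and are best known from muscle and liver. Resistin, adipsin (complement factor D, encoded by *Cfd*), apelin and the retinol carrier RBP4 are further secreted proteins of fat, and RBP4 is made above all by hepatocytes. *Rbp7* encodes an intracellular retinol-binding protein that is found in adipocytes and in the endothelium of fat.

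In iWAT, *Lep* was lower and *Rbp7* was higher in every LKO library than in every Ctrl library, whereas the *Adipoq* levels overlapped. The promoter windows of these 3 genes are shown because the results turn on them, with that of *Adipor1*, a receptor transcribed in all 4 tissues, beside them. Each window runs from 250 bases before to 50 bases after the transcription start, 5′ to 3′ on the strand of the gene (RefSeq, GRCm38.p6). They lie at chr6:29059971-29060270 (+ strand, *Lep*), chr4:149454919-149455218 (− strand, *Rbp7*), chr16:23146286-23146585 (+ strand, *Adipoq*) and chr1:134415128-134415427 (+ strand, *Adipor1*), and each start was also the start of the gene in the deposited tables. Capitals mark matches on either strand to the TATA box TATAAA, the C/EBP motif TTGCNNAA, the GC box GGGCGG, the CCAAT box CCAAT, the E-box CACGTG or the PPAR half-site AGGTCA.
Lep: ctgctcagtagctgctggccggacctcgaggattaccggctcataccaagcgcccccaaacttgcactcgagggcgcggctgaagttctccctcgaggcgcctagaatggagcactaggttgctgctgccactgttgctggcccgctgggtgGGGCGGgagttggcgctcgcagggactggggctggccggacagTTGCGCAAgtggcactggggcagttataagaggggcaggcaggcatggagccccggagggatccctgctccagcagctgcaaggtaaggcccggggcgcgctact
Rbp7: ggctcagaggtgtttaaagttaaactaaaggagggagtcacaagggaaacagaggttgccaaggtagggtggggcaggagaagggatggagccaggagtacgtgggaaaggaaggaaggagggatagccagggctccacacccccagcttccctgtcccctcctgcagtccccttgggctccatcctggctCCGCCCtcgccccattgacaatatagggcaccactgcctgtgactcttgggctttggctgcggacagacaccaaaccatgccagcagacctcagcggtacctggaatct
Adipoq: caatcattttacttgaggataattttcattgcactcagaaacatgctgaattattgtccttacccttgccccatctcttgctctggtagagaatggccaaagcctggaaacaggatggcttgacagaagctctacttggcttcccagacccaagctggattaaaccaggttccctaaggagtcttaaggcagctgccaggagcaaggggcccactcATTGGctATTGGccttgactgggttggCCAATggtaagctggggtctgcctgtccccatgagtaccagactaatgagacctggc
Adipor1: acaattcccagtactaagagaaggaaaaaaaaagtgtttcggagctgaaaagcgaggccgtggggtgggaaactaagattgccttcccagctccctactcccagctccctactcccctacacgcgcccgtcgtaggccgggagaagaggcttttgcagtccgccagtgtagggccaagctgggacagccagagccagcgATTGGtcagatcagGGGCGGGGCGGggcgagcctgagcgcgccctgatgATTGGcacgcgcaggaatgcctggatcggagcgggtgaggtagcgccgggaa

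The *Lep* window held the palindromic C/EBP match TTGCGCAA 55 bases before the start and a GC box 98 bases before it. A C/EBP match was present in 10.8% and a GC box in 35.7% of the 32851 promoter windows of the mouse table. The *Rbp7* window held 1 GC box, on the opposite strand, 59 bases before the start. The *Adipoq* window held 3 CCAAT boxes within 34 bases of the start, and such a box was present in 37.4% of all windows. The *Adipor1* window held 2 overlapping GC boxes between 2 CCAAT boxes. None of the 4 windows matched the TATA box, the E-box or the PPAR half-site, which were present in 13.6%, 7.15% and 16.3% of all windows. The GC content was 66% for *Lep*, 58.3% for *Rbp7*, 50% for *Adipoq* and 61% for *Adipor1*, against a median of 52.7%. These matches describe letters in a window and not binding.

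The libraries carried the features of their labels. *Crif1* (listed as *Gadd45gip1*) stood at 14.6, 12.5 and 13.6 FPKM in Ctrl liver and at 5.4, 2.0 and 2.5 FPKM in LKO liver, and the genotypes overlapped in the other 3 tissues. FPKM, the deposited unit, is scaled to transcript length and to the mapped fragments of each library, so levels may be compared between genes. The depth was 4.45 to 8.09 gigabases per library. Summed FPKM of 6 muscle genes reached 90718 to 102198 in GM, those of 15 white adipocyte genes 24276 to 32224 in iWAT, those of 5 hepatocyte genes 41711 to 69585 in liver and those of 4 neuronal genes 1052 to 1112 in the hypothalamus. Counting error of single genes cannot be given, since read counts were not used here. The labels do not say whether the libraries of a group come from separate cages or litters, and p-values measure the spread between these libraries.

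iWAT expressed 9 of the 10 genes at 1 FPKM or more in at least 3 of its 6 libraries, the limit for a test. The 9 genes spanned from *Cfd*, at 13798 to 25333 FPKM, to *Apln*, at 1.23 to 2.51 FPKM. Differences are given as the log2 fold change (log2FC), LKO minus Ctrl, of log2(FPKM + 1) from limma, which understates the change of low genes. The unadjusted criterion asked for a change of at least 1.5-fold at a limma p under 0.05. The adjusted criterion asked for that fold at a Benjamini-Hochberg adjusted p under 0.05. Of the 9 genes tested, 2 passed the unadjusted criterion, 1 lower and 1 higher, against 3.25% of the 12288 genes tested in iWAT (1.29% lower and 1.95% higher). None passed the adjusted criterion in limma, and nor did any other gene (0%). At an unadjusted p under 0.05, which 15% of all genes had, stood 4 of the 9: *Lep*, *Rbp7*, *Adipor1* and *Adipor2*.

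**Figure D1:**
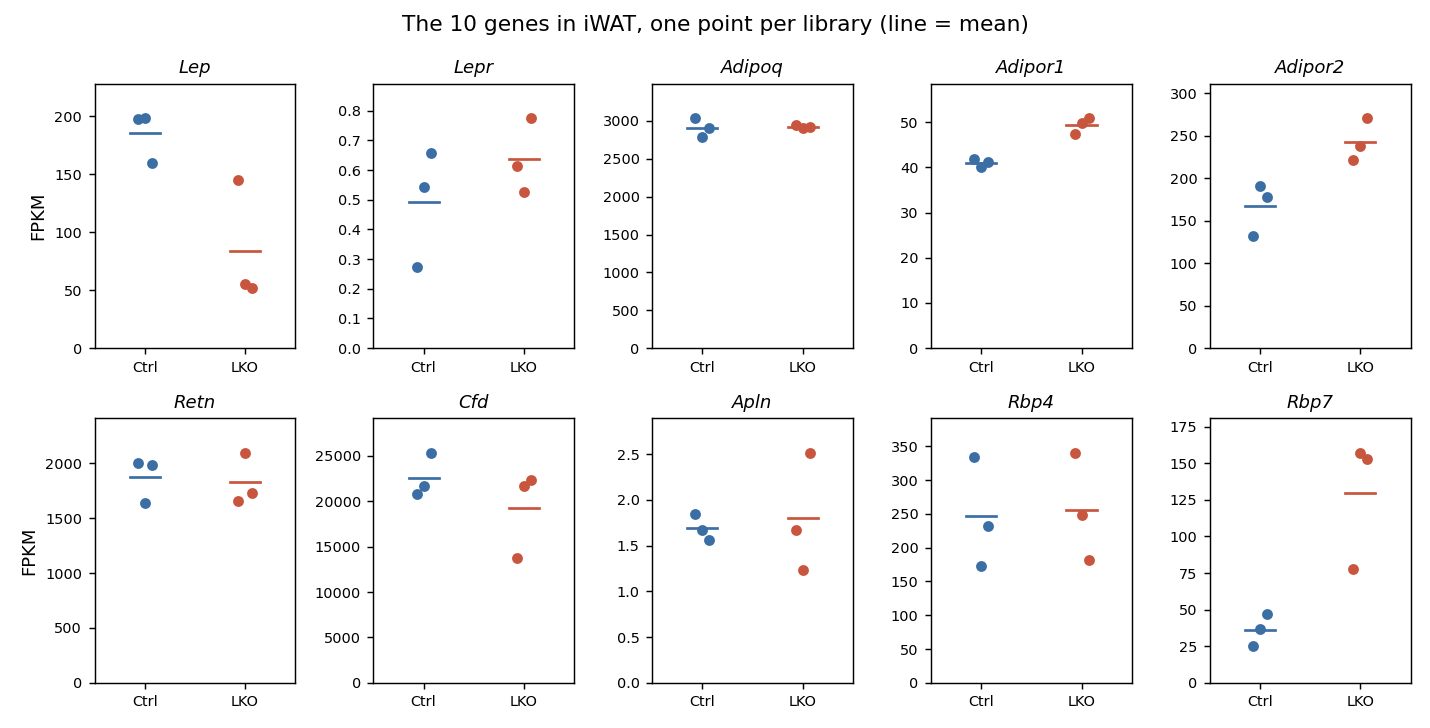
FPKM of the 10 genes in iWAT (y axis, from 0, a separate scale per gene) in Ctrl and LKO mice, with 1 point per library and a line at the mean of 3. *Lep* lies lower and *Rbp7*, *Adipor1* and *Adipor2* lie higher in all 3 LKO libraries, while the groups of the other 6 genes overlap.

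*Lep*, the leptin gene (gene ID 16846, chr6:29060221-29073876, + strand, mm10), was measured at 198, 198 and 159 FPKM in Ctrl iWAT and at 145, 55.4 and 51.7 FPKM in LKO iWAT. The groups did not overlap, but LKO 1 lay close to the lowest Ctrl library while LKO 2 and LKO 3 lay at about the same low level. The log2FC was −1.29 (SE 0.38, 95% interval −2.20 to −0.38, adjusted p = 0.204 by limma, n = 3 per group), a fitted fold of 0.409. Without LKO 1 the log2FC was −1.76 and the adjusted p 0.0396, so that the gene then passed the adjusted criterion. In bulk tissue, fewer cells of a type cannot be told apart from less RNA per cell.

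*Adipoq*, the adiponectin gene (gene ID 11450, chr16:23146536-23157968, + strand), stood at 3036, 2784 and 2902 FPKM in Ctrl and at 2943, 2909 and 2916 FPKM in LKO iWAT. The 3 LKO values fell inside the Ctrl range. Its log2FC was 0.01 (SE 0.13), with a 95% interval from −0.30 to 0.32. Taken within each library, which removes differences in depth and in the share of adipocyte RNA common to both genes, the ratio of *Lep* to *Adipoq* was 0.0651, 0.0712 and 0.0549 in Ctrl and 0.0492, 0.0191 and 0.0177 in LKO. The ratio was lower in 3 of 3 LKO libraries, with a mean log2 difference of −1.31. An exact two-sided permutation test gave p = 0.1, the smallest value 3 against 3 allows, and 0.167 after adjustment over the 5 ratios tested.

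Other products of the white adipocyte differed less. *Retn*, which encodes resistin (gene ID 57264, chr8:3655770-3659818), had a mean of 1875 FPKM in Ctrl and 1824 FPKM in LKO, with a log2FC of −0.04 (SE 0.16). *Cfd*, the adipsin gene (gene ID 11537, chr10:79890853-79892655), was measured at 20859, 21643 and 25333 FPKM in Ctrl and at 13798, 21739 and 22300 FPKM in LKO. LKO 1 was the low library, the other 2 lay within the Ctrl range, and the log2FC was −0.26 (SE 0.30, adjusted p = 0.722). *Cfd* overlaps *Bc1* on the opposite strand, and reads of the 2 genes cannot be told apart without strand. *Apln*, the apelin gene (gene ID 30878, chrX:48025146-48034853), had a mean of 1.69 FPKM in Ctrl and 1.80 FPKM in LKO (log2FC 0.04, SE 0.17).

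The retinol carriers parted. *Rbp7* (gene ID 63954, chr4:149449702-149454968, − strand) was measured at 25.0, 36.9 and 47.1 FPKM in Ctrl and at 77.9, 157 and 153 FPKM in LKO iWAT. All 3 LKO libraries were above all 3 Ctrl libraries, and LKO 1 was again the one nearest to Ctrl. LKO 1 had a depth of 7.6 gigabases, against 4.8 and 4.9 for LKO 2 and LKO 3. Ctrl 1 had 7.9, against 5.2 and 4.6 for Ctrl 2 and Ctrl 3, and the part of depth was not tested. The log2FC was 1.78 (SE 0.33, 95% interval 0.99 to 2.57, adjusted p = 0.109 by limma), a fitted fold of 3.44. Without LKO 1 it was 2.11 with an adjusted p of 0.046. In a limma fit of all 24 libraries, where the tissues share an estimate of the spread, the adjusted p was 0.000104. That spread came partly from liver, where *Rbp7* was at 0 to 0.307 FPKM, and hypothalamus, where it was at 0 to 0.233 FPKM. So near 0 the values can hardly vary, and that p does not measure the spread within iWAT. *Rbp4*, the carrier of retinol in plasma (gene ID 19662, chr19:38116620-38125321, − strand), stood at 335, 174 and 232 FPKM in Ctrl and at 340, 248 and 181 FPKM in LKO. Its groups overlapped over nearly their whole range, with a log2FC of 0.06 (SE 0.30).

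Endothelial markers are given beside *Rbp7*. Of 6 in iWAT, 2 were higher past the unadjusted criterion, *Cdh5* (log2FC 0.77, SE 0.13) and *Kdr* (0.81, SE 0.13), and 0 passed the adjusted one. In 5 of the 6 all LKO libraries lay above all Ctrl libraries, against 9.76% of all genes, and none was at 0. Their summed FPKM was 170 to 190 in Ctrl and 244 to 312 in LKO. The ratio of *Rbp7* to *Cdh5*, the gene of VE-cadherin, chosen after the values were seen, was 0.657, 0.873 and 1.16 in Ctrl and 1.26, 2.48 and 1.79 in LKO. The ratio of *Rbp7* to *Adipoq* was 0.00822 to 0.0162 in Ctrl and 0.0265 to 0.0540 in LKO. Neither ratio was tested.

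Both adiponectin receptors were higher in LKO iWAT by less than 1.5-fold. *Adipor2* (gene ID 68465, chr6:119353150-119417483, − strand) was measured at 132, 191 and 178 FPKM in Ctrl and at 221, 238 and 271 FPKM in LKO. The log2FC was 0.55 (SE 0.16, adjusted p = 0.193 by limma), a fold of 1.46. It crossed 1.5-fold when Ctrl 2 (0.65), Ctrl 3 (0.60) or LKO 1 (0.62) was left out, and it was 0.39 without Ctrl 1 and 0.47 without LKO 3. *Adipor1* (gene ID 72674, chr1:134415378-134433350, + strand) stood at 41.8, 40.0 and 41.2 FPKM in Ctrl and at 47.5, 49.9 and 50.9 FPKM in LKO, with a log2FC of 0.26 (SE 0.06, adjusted p = 0.157). For both receptors every LKO library exceeded every Ctrl library. Of the 9 genes, 4 had groups without overlap, 3 higher and 1 lower, against 20.8% of all genes tested (9.76% higher and 11% lower).

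*Lepr*, which encodes all forms of the leptin receptor (gene ID 16847, chr4:101717407-101815354, + strand), was under 1 FPKM in each iWAT library, at 0.274 to 0.659 FPKM in Ctrl and 0.524 to 0.775 FPKM in LKO, and was not tested there. Its neighbour *Leprot*, which encodes a protein that limits leptin receptor at the cell surface, did not pass (log2FC −0.04, SE 0.12).

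**Figure D2:**
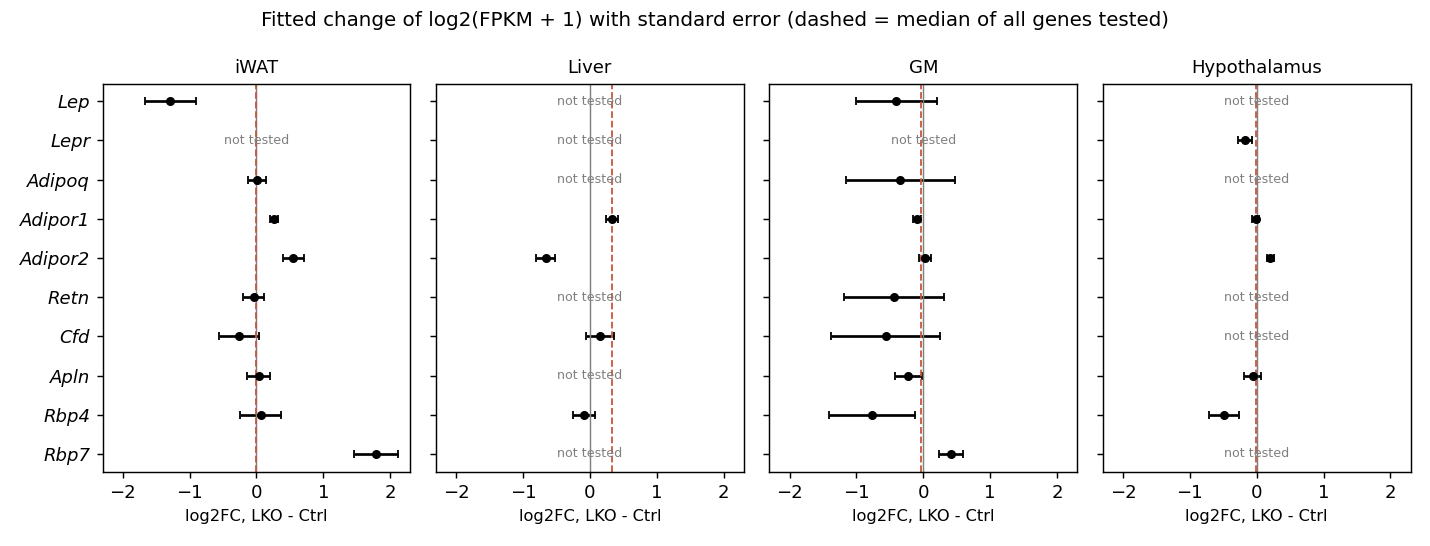
Fitted log2FC (x axis, LKO minus Ctrl, of log2(FPKM + 1)) with its standard error for the 10 genes (rows) in each tissue, with the median of all genes tested as a dashed line. *Lep* at −1.29 and *Rbp7* at 1.78 stand apart in iWAT, *Adipor2* lies at −0.66 in the liver, where the dashed line is at 0.33, and in GM the bars of *Lep*, *Adipoq*, *Retn*, *Cfd* and *Rbp4* are wide, with SE of 0.60 to 0.82.

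Genes around these hormones were read as lists in iWAT. Of 10 genes of adiponectin receptor signalling, 1 was higher past the unadjusted criterion: *Ppara*, a nuclear receptor of fatty acid oxidation, at 5.63, 3.21 and 4.41 FPKM in Ctrl and 8.04, 7.23 and 6.08 FPKM in LKO (log2FC 0.60, SE 0.18). It fell under 1.5-fold without Ctrl 2 (0.43) and without LKO 1 (0.52). The median log2FC of that list was 0.00, against −0.01 over all genes. None of 5 genes of adiponectin assembly passed, and *Gstk1*, which encodes the chaperone DsbA-L, had the widest difference at −0.12. None of 9 genes of leptin receptor signalling passed either, with *Ptpn1*, the gene of the phosphatase PTP1B, at −0.14. None of 6 retinoid genes tested passed, and *Cyp26b1*, which encodes a retinoic acid hydroxylase, was at 0.59 (SE 0.57). *Cyp26b1* passed with the replicate block (0.59) and without LKO 1 (1.21), and was at 0.23 without LKO 3. Neither *Aplnr*, the apelin receptor gene (−0.28, SE 0.27), nor the other apelin list gene tested passed.

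Among 4 genes of the resistin family and its reported receptors, 1 was lower: *Retnla*, which encodes RELMα (log2FC −0.67, SE 0.22). It lost that call without Ctrl 3 (−0.48), LKO 1 (−0.57) or LKO 3 (−0.61). None of 7 genes of the alternative complement pathway, in which adipsin cleaves factor B, passed the criterion, although their median log2FC was −0.40. The widest difference of that list was *C3ar1*, a complement receptor gene, at −0.51 (SE 0.39). Of 12 other adipokines, 1 was higher: *Lcn2*, which encodes lipocalin 2 (log2FC 1.24, SE 0.33), and with median-ratio scaling *Fbn1* was lower. None of 6 C1q/TNF paralogs of adiponectin passed, with *C1qtnf6* at −0.43 (SE 0.24), but *C1qtnf6* passed without Ctrl 1 (−0.69). None of 6 further members of the PAQR family, to which the adiponectin receptors belong, passed, with *Paqr7* at −0.48 (SE 0.17), but *Paqr7* passed without LKO 1 (−0.66). With TPM 2 of 8 PAQR genes tested were higher, *Mmd2* and *Paqr3*, named after their values were seen.

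Adipocyte lists and markers of other cells were given as context for *Lep*. Of all genes tested in iWAT, 1.95% were higher and 1.29% lower past the unadjusted criterion. Of 15 white adipocyte genes, 1 was lower: *Pparg*, the master regulator of adipocyte differentiation, at 133, 164 and 139 FPKM in Ctrl and 78.4, 101 and 103 FPKM in LKO (log2FC −0.63, SE 0.14), which was under 1.5-fold without Ctrl 2 (−0.54) or LKO 1 (−0.50). The median log2FC of that list was 0.16, against −0.01 over all genes. In 5 of the 15 all LKO libraries lay above all Ctrl libraries and in 1 below, against 9.76% and 11% of all genes. The summed FPKM of that list was 24276 to 29858 in Ctrl and 31018 to 32224 in LKO. Of 9 brown and beige adipocyte genes, 2 were higher: *Elovl3*, a fatty acid elongase gene, at 0.508, 0.548 and 0 FPKM in Ctrl and 2.24, 1.04 and 3.91 FPKM in LKO, and *Cox8b* (log2FC 0.82, SE 0.31). *Elovl3* entered the test through the LKO libraries alone, so that 1 gene remains without it. The median log2FC of the 9 genes, *Elovl3* included, was 0.88, against −0.01 over all genes. It was 0.87 to 0.93 with TPM, median-ratio scaling and quantile normalization. *Cox8b* no longer passed with the replicate block (0.82) or without Ctrl 2, Ctrl 3, LKO 2 or LKO 3, where its lowest log2FC was 0.52. The summed FPKM of that list ran from 177 to 575 in Ctrl and from 509 to 861 in LKO, and *Ucp1*, the uncoupling protein gene, overlapped between the genotypes at 4.50 to 81.6 and 41.1 to 211 FPKM. Of 5 stromal markers 1 was lower, *Pi16* (log2FC −0.75, SE 0.11), with a list median of −0.33 and sums of 1517 to 2404 FPKM in Ctrl and 1352 to 1704 FPKM in LKO. Macrophage markers overlapped at 664 to 1724 and 668 to 875 FPKM, and 5 hepatocyte markers summed to 14.4 to 25.8 and 36.9 to 54.4 FPKM, led by *Alb* (log2FC 1.39). Single libraries stood apart in other lists: mammary epithelium markers summed to 0.041 to 0.507 FPKM in Ctrl and to 6.05, 9.25 and 0.230 FPKM in LKO, and skeletal muscle markers to 527 FPKM in Ctrl 1 and 838 FPKM in LKO 2, against 34.7 to 96.4 FPKM in the other 4 libraries. Of 4 blood genes tested, 3 were higher past the unadjusted criterion, under each scaling tried as well: *Alas2* (log2FC 1.07, SE 0.27), *Hba-a1* (1.3, SE 0.46) and *Hba-a2* (0.97, SE 0.35). The median of the blood genes tested was 1.02, and the summed FPKM of all 5 overlapped at 477 to 1308 in Ctrl and 853 to 1751 in LKO. The part of these cell populations in the values of *Lep* and *Rbp7* was not tested.

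The 3 receptors were transcribed in all 4 tissues, with a different order for each. *Adipor1* in Ctrl mice had a mean of 95.2 FPKM in GM, 41.0 in iWAT, 30.4 in liver and 25.6 in hypothalamus. GM exceeded iWAT by 1.20 on the log2 scale (adjusted p = 1.01e-09), where 58% of all genes differed by the same criterion. iWAT exceeded liver by 0.42 (adjusted p = 9.69e-06) and liver exceeded hypothalamus by 0.24 (adjusted p = 0.000872), both less than 1.5-fold, and 61.5% and 75.6% of all genes passed between those tissues. No library of one tissue overlapped with the next.

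*Adipor2* in Ctrl mice was highest in iWAT and liver, at means of 167 and 143 FPKM, which did not differ beyond their spread (difference 0.22 on the log2 scale, SE 0.12, adjusted p = 0.134). Liver exceeded GM, at 38.6 FPKM, by 1.85, where 51.5% of genes passed, and GM exceeded hypothalamus, at 20.3 FPKM, by 0.89, where 71.7% passed. *Lepr* was highest in hypothalamus, at a mean of 1.83 FPKM, against 0.544 FPKM in liver, a difference of 0.88 on the log2 scale (SE 0.12) given as a value, since *Lepr* reached 1 FPKM in Ctrl mice in the hypothalamus alone and so entered the test through the tissue where it was high. Liver, iWAT at 0.492 FPKM and GM at 0.315 FPKM followed and overlapped with their neighbours. Of the 9 neighbouring pairs, 4 passed the adjusted criterion, and 3 of these are pairs of *Adipor1* or *Adipor2*.

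**Figure D3:**
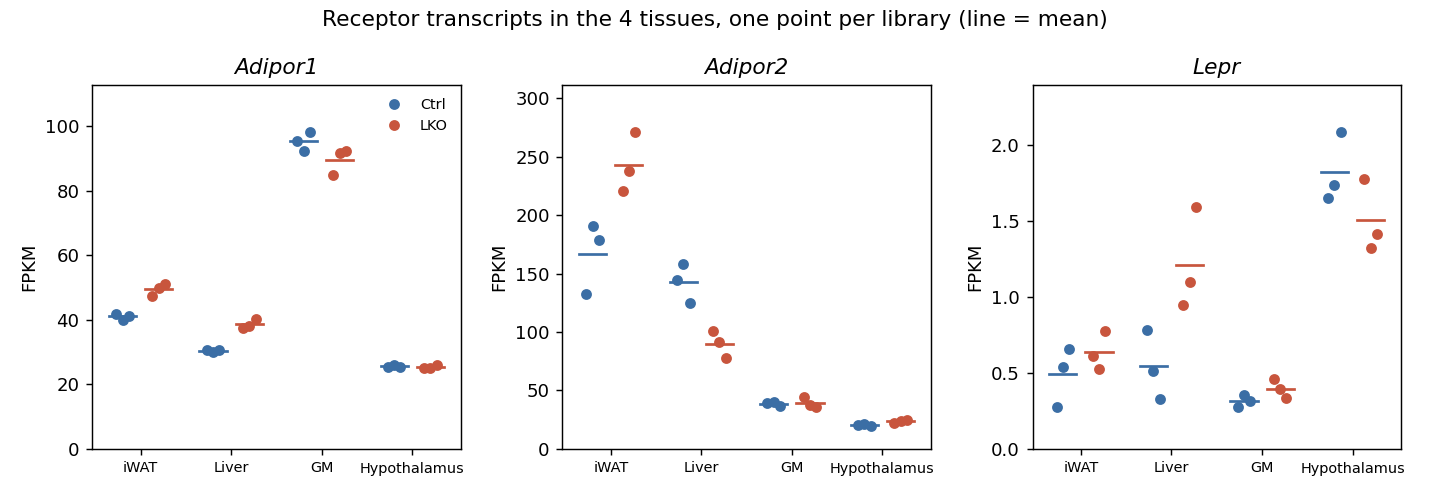
FPKM (y axis, from 0) of *Adipor1*, *Adipor2* and *Lepr* in the 4 tissues, with 1 point per library, a line at the mean, and Ctrl beside LKO. *Adipor1* is highest in GM, *Adipor2* in iWAT and liver, and *Lepr* in hypothalamus, and in LKO liver *Adipor2* is lower while *Adipor1* and *Lepr* are higher than in Ctrl.

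Ranked by Pearson's r of log2(FPKM + 1) over the 24 libraries, the genes most like *Adipor1* were *Coq9* (0.993), *Abcc9* (0.992) and *Asnsd1* (0.991). Those most like *Adipor2* were *Cflar* (0.982), *Dtx3l* (0.979) and *Ces1d* (0.977), and those most like *Lepr* were *Fbxo34* (0.950), *Ercc6* (0.944) and *Nat10* (0.944). These values describe 4 tissues of 6 libraries each more than 24 separate points.

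The liver, where *Crif1* was deleted, was the tissue in which an adiponectin receptor passed the adjusted criterion. *Adipor2* was measured at 145, 158 and 125 FPKM in Ctrl liver and at 101, 91.3 and 77.4 FPKM in LKO liver. The groups did not overlap, and *Adipor2* fell by 0.66 on the log2 scale (SE 0.14, adjusted p = 0.0118 by limma), a fold of 0.632. It fell short of 1.5-fold without Ctrl 2 (−0.58, adjusted p = 0.0557), without LKO 3 (−0.56) and with TPM (−0.54), and without LKO 2 its adjusted p was 0.0523. Of the 4 genes tested in liver it was the 1 that passed, against 28.9% of 10956 genes by the unadjusted and 27.4% by the adjusted criterion.

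*Adipor1* was measured at 30.5, 30.1 and 30.5 FPKM in Ctrl liver and at 37.5, 38.2 and 40.2 FPKM in LKO liver, again without overlap. Its log2FC was 0.34 (SE 0.09, adjusted p = 0.0238), while the median of all genes in liver was itself shifted by 0.33. *Adipor1* thus lay at the shift of all genes. With median-ratio scaling, which brought the median of all genes to −0.05, its log2FC was −0.09, and that of *Adipor2* was −1.10. Groups without overlap were frequent in liver, at 61.1% of genes, and 2 of the 4 genes tested had them.

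The balance of the receptors does not depend on such scaling. Within each library the ratio of *Adipor1* to *Adipor2* was 0.211, 0.190 and 0.244 in Ctrl liver and 0.371, 0.418 and 0.520 in LKO liver. Every LKO ratio exceeded every Ctrl ratio, by 1.01 on the log2 scale on average, a fold of 2.02 (exact two-sided permutation p = 0.1, the smallest possible, adjusted p = 0.167). In hypothalamus the ratio was 1.26, 1.25 and 1.28 in Ctrl and 1.11, 1.06 and 1.07 in LKO, a difference of −0.23 with the same p. In iWAT (−0.28, exact permutation p = 0.3) and GM (−0.11, exact permutation p = 0.7) the genotypes overlapped, and GM had the highest ratios, from 1.90 to 2.66.

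**Figure D4:**
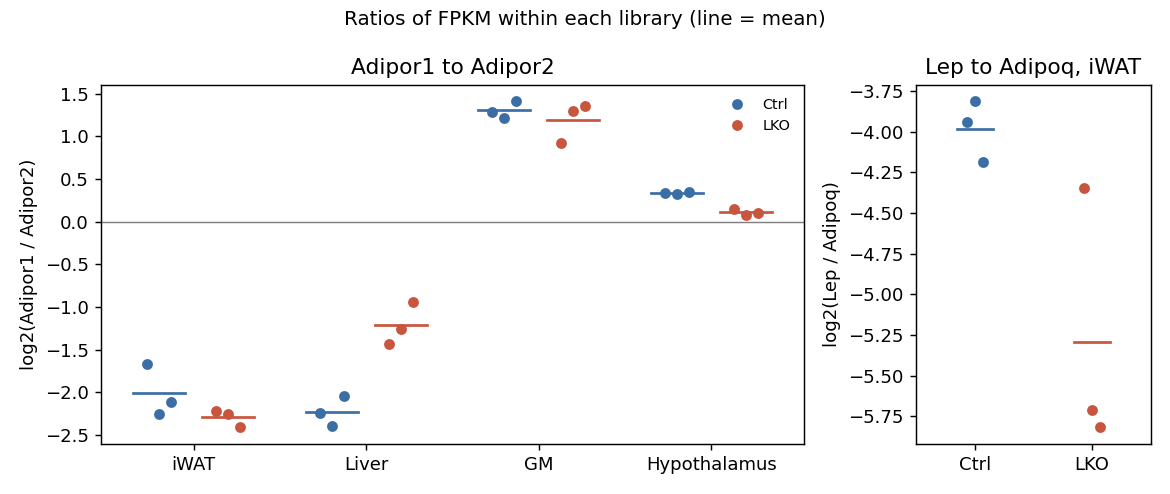
Log2 ratio of FPKM within each library (y axis), *Adipor1* to *Adipor2* in the 4 tissues on the left and *Lep* to *Adipoq* in iWAT on the right, with 1 point per library and a line at the mean. In liver the LKO points lie above the Ctrl points by 1.01 on average, and in iWAT the *Lep* to *Adipoq* ratio of LKO lies lower by 1.31 on average.

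*Lepr* in liver was measured at 0.785, 0.515 and 0.331 FPKM in Ctrl and at 0.945, 1.10 and 1.59 FPKM in LKO. The 3 LKO libraries were above the 3 Ctrl libraries, but *Lepr* reached 1 FPKM in too few libraries for a test. Without a filter its log2FC was 0.52, under 1.5-fold (adjusted p = 0.0488 by limma). With TPM it reached the limit in the 3 LKO libraries and 1 Ctrl library, so that it entered the test mainly through the group where it was high, and its log2FC of 0.78 is given as a value. *Leprot* was measured at 8.30, 8.37 and 7.54 FPKM in Ctrl and at 14.8, 16.9 and 20.9 FPKM in LKO liver (log2FC 1.02, SE 0.14, adjusted p = 0.00293 by limma). It stayed past the criterion with median-ratio scaling, at 0.61.

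*Rbp4*, whose main source is the hepatocyte, had a mean of 2681 FPKM in Ctrl liver and 2529 FPKM in LKO liver, with overlapping groups (log2FC −0.09, SE 0.16). With median-ratio scaling the log2FC of *Rbp4* was −0.54 (adjusted p = 0.0439 by limma), which was under 1.5-fold, and with quantile normalization it was 0.43. *Cfd* was measured at 0.913 to 2.24 and 1.66 to 2.22 FPKM and did not pass (log2FC 0.15, SE 0.21). *Lep*, *Adipoq*, *Retn*, *Apln* and *Rbp7* stayed under 1 FPKM in every liver library. Markers of cell types differed between the genotypes in liver, where 23.9% of all genes were higher and 3.5% were lower past the adjusted criterion. All 5 macrophage markers were higher by it, with summed FPKM of 73.4 to 79.5 in Ctrl and 179 to 263 in LKO. So were 3 of 3 stromal markers tested, of which *Pdgfra* entered the test through the LKO libraries alone, with sums of 55.9 to 65.3 and 147 to 158 FPKM, and 3 of 6 endothelial markers, with sums of 38.6 to 43.6 and 48.9 to 80.7 FPKM. Of the markers given above as mammary epithelium, 3 of 3 tested were higher as well, with sums of 192 to 284 and 668 to 783 FPKM. Of these, *Epcam* entered the test through the LKO libraries alone. Of 12 white adipocyte genes tested, 7 were higher and 2 lower past the adjusted criterion. With median-ratio scaling 4 macrophage, 3 stromal, 2 epithelial and 0 endothelial markers were higher, and 6 white adipocyte genes were higher and 3 lower. Of 5 hepatocyte markers 2 were lower past the unadjusted criterion, *Apoa1* (log2FC −0.71, SE 0.28) and *Serpina1a* (−0.92, SE 0.28), and *Serpina1a* also past the adjusted one, while their sums of 56768 to 59889 and 41711 to 69585 FPKM overlapped. The median log2FC of the hepatocyte markers was −0.40, and it was −0.85 with median-ratio scaling, where 3 of the 5 were lower past the unadjusted criterion, and 0.02 with quantile normalization, where none was. Their part in the receptor values was not tested.

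Of 9 genes of leptin receptor signalling in liver, 5 were higher past the adjusted criterion, beside 23.9% of all genes, led by *Leprot* and *Leprotl1*, its paralog (log2FC 0.86, SE 0.21). With median-ratio scaling and with quantile normalization 1 of the 9 passed, and the median of the list went from 0.66 to 0.23 and 0.31. Of 10 genes of adiponectin receptor signalling 1 was higher, *Appl2*, an adaptor gene (0.70, SE 0.23), which was at 0.30 with median-ratio scaling. With median-ratio scaling and with quantile normalization none of the 10 was higher and 1 was lower past the adjusted criterion, in both *Camkk2*, an AMPK kinase gene named after its values were seen, and the median of the list went from 0.17 to −0.16 and −0.24. In the smaller lists of liver, *Lrat*, the gene of the enzyme that esterifies retinol (1.13, SE 0.32), *Cap1*, a reported resistin receptor gene (0.85, SE 0.18), *Mme*, the neprilysin gene (0.70, SE 0.19), and *Ero1l*, an oxidase gene of the endoplasmic reticulum (0.75, SE 0.22), were higher. All of these stayed above 0 with median-ratio scaling, but *Cap1* (0.42), *Mme* (0.31) and *Ero1l* (0.38) were then under 1.5-fold. Without LKO 3, *Appl2* (0.47), *Mme* (0.57) and *Ero1l* (0.51) were under 1.5-fold.

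Of 13 other adipokines tested in liver, 7 were higher and 1 was lower past the adjusted criterion, beside 23.9% and 3.5% of all genes, and with median-ratio scaling 5 were higher and 3 were lower. *Fgf21*, a hormone gene of the stressed liver, had a log2FC of 4.28 (SE 0.53) and *Lcn2* of 2.95 (SE 0.31). Of 8 complement genes 3 were higher, among them *Cfp*, the properdin gene (1.06, SE 0.17), and *C3ar1*, at 0.338 to 0.496 FPKM in Ctrl and 1.26 to 1.86 FPKM in LKO. Of 4 C1q/TNF paralogs 3 were higher, among them *C1qtnf1* (1.06, SE 0.15) and *C1qtnf6*, at 0.379 to 0.523 FPKM in Ctrl and 1.19 to 2.23 FPKM in LKO. Of 6 PAQR genes 3 were higher by the adjusted criterion, led by *Mmd2* (1.37, SE 0.47), and *Paqr9* was lower by the unadjusted criterion (−1.08, SE 0.40). *Mmd2* lost its call without Ctrl 1 or Ctrl 2 and under both other scalings (1.09 and 0.99), and *Paqr9* in 4 of the 6 fits with a library left out (to −0.74). *C3ar1*, *C1qtnf6*, *Bmp8b*, *Ccl2* and *Paqr4* were under 1 FPKM in every Ctrl liver and entered the test through the LKO libraries alone. Without them 5 other adipokines, 2 complement genes, 2 C1q/TNF paralogs and 2 PAQR genes were higher past the adjusted criterion. With median-ratio scaling 2 complement genes were higher and 1 was lower, 2 C1q/TNF paralogs were higher, and none of the 6 PAQR genes passed the adjusted criterion. With quantile normalization 4 other adipokines, 2 complement genes and 1 C1q/TNF paralog were higher, 1 other adipokine was lower and again no PAQR gene passed, and *C3ar1* (0.39) and *C1qtnf6* (0.39) were under 1.5-fold.

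In GM none of the 9 genes tested passed either criterion, where 0.901% of 10877 genes passed the unadjusted and 0% the adjusted one, and 0 of the 9 had an unadjusted p under 0.05 in limma, against 6.83% of all genes. *Adipor1* was measured at 95.4, 92.3 and 98.0 FPKM in Ctrl and at 84.7, 91.6 and 92.3 FPKM in LKO, which did not overlap but lay close together (log2FC −0.09, SE 0.06). It was the 1 gene of the 9 with groups apart, against 11.6% of all genes. *Adipor2* differed by 0.02 (SE 0.09, 95% interval −0.19 to 0.23), and *Lepr* was under 1 FPKM throughout. *Rbp7* was measured at 2.84, 4.54 and 4.21 FPKM in Ctrl and at 5.38, 4.32 and 6.73 FPKM in LKO (log2FC 0.41, SE 0.18, adjusted p = 0.742 by limma), with overlap between the groups.

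Adipocyte transcripts in GM varied widely between libraries of one genotype, and so did 8 lymphocyte markers, with sums of 11.5, 8.28 and 0.316 FPKM in Ctrl and 44.1, 0.229 and 0.253 FPKM in LKO. *Adipoq* stood at 27.3, 39.1 and 6.62 FPKM in Ctrl GM and at 48.1, 6.53 and 10.5 FPKM in LKO GM. *Cfd* at 192, 324 and 57.6 FPKM in Ctrl and 310, 46.0 and 77.0 FPKM in LKO, *Retn* and *Lep* followed the same libraries. The ratio of *Cfd* to *Adipoq* was 6.44 to 8.70 over the 6 GM libraries and 4.69 to 8.73 over the 6 iWAT libraries. That of *Retn* to *Adipoq* was 0.562 to 0.739 in GM and 0.562 to 0.720 in iWAT. The ratio of *Lep* to *Adipoq* in GM was 0.0739, 0.0783 and 0.0497 in Ctrl and 0.0762, 0.0259 and 0.0281 in LKO, so that LKO 2 and LKO 3 were below the 3 Ctrl libraries and LKO 1 was not. *Lep* itself was at 0.169 and 0.294 FPKM in those 2 libraries.

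**Figure D5:**
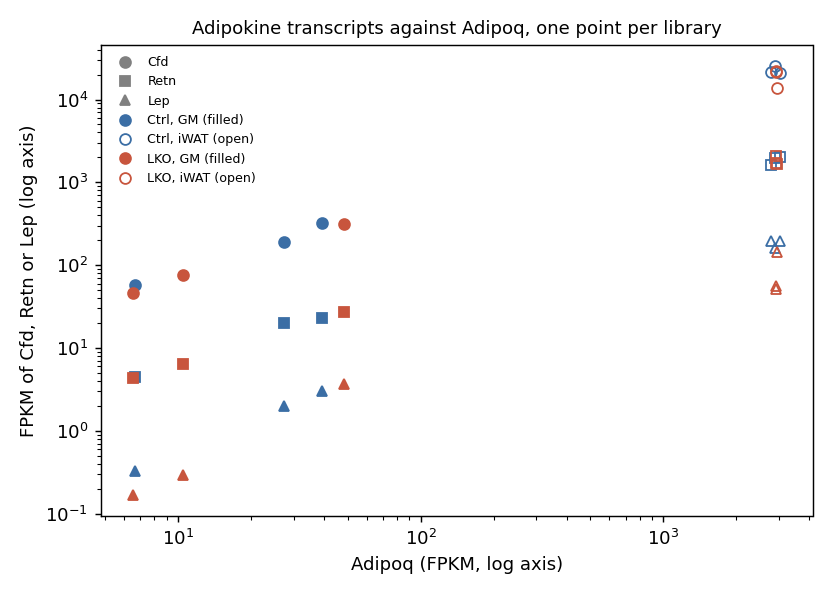
*Cfd*, *Retn* and *Lep* (y axis, FPKM, log axis) against *Adipoq* (x axis, FPKM, log axis), with 1 point per library of GM (filled) and iWAT (open). *Adipoq* spans 6.53 to 48.1 FPKM in GM and 2784 to 3036 FPKM in iWAT, and *Cfd* and *Retn* keep nearly the same ratio to it in both tissues.

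*Rbp4* in GM was measured at 15.2, 2.95 and 11.3 FPKM in Ctrl and at 10.8, 1.95 and 3.62 FPKM in LKO (log2FC −0.76, SE 0.64, adjusted p = 0.891). Without Ctrl 2 its log2FC was −1.37 (adjusted p = 0.741 by limma) and it passed the unadjusted criterion, but it was −0.32 without LKO 2 and −0.36 without Ctrl 1. It also passed that criterion with a replicate block (−0.76, adjusted p = 0.479 by limma). Hepatocyte markers were high in the same libraries: *Alb*, *Apoa1*, *Ttr*, *Serpina1a* and *Fgb*, none at 0, summed to 251, 19.3 and 191 FPKM in Ctrl and to 93.2, 11.3 and 32.3 FPKM in LKO. The ratio of *Rbp4* to *Alb*, chosen after the values were seen, was 0.0902 to 0.234 over the 6 GM libraries, whereas it was 3.68 to 18.1 in iWAT. The part of hepatocyte RNA in the *Rbp4* values of GM was not tested. Among the pathway lists in GM, 1 gene passed the unadjusted criterion, *Angptl4*, which encodes an inhibitor of lipoprotein lipase (log2FC 1.73, SE 0.34, adjusted p = 0.379 by limma). Of 14 white adipocyte genes tested in GM *Plin4* was higher by that criterion (0.71, SE 0.21), and of 3 blood genes *Hba-a2*, at 0.149, 0.178 and 91.4 FPKM in Ctrl and 86.6 to 118 FPKM in LKO, both named after their values were seen.

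In hypothalamus none of the 5 genes tested passed, where 0.333% of 13828 genes passed the unadjusted and 0.0217% the adjusted criterion, and 1 of the 5 had an unadjusted p under 0.05 in limma, against 3.72% of all genes. *Lepr* was measured at 1.65, 1.74 and 2.08 FPKM in Ctrl and at 1.77, 1.32 and 1.42 FPKM in LKO, with LKO 1 inside the Ctrl range (log2FC −0.18, SE 0.10, 95% interval −0.42 to 0.07). *Adipor2* was measured at 20.1, 20.9 and 19.9 FPKM in Ctrl and at 22.5, 23.8 and 24.3 FPKM in LKO. The groups did not overlap and the difference was small (log2FC 0.20, SE 0.06, adjusted p = 0.999 by limma). It was the 1 gene of the 5 with groups apart, against 9.7% of all genes. *Adipor1* differed by −0.01 (SE 0.05, 95% interval −0.13 to 0.11), and *Apln* by −0.06 (SE 0.12).

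*Rbp4* in hypothalamus was measured at 11.2, 12.6 and 20.2 FPKM in Ctrl and at 12.1, 9.63 and 8.16 FPKM in LKO, with a log2FC of −0.49 (SE 0.22, adjusted p = 0.999 by limma). Ctrl 3 was the high library, and its summed hepatocyte markers (29.3 FPKM) and blood markers (952 FPKM) were also the highest of the 6. Without Ctrl 1 the log2FC of *Rbp4* was −0.65 and without LKO 1 it was −0.63, and both passed the unadjusted criterion, but without Ctrl 3 it was −0.25 (adjusted p = 0.903 by limma). *Lep* was listed at 0 in all 6 libraries, and *Adipoq*, *Cfd* and *Rbp7* were under 1 FPKM in each.

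Targets of leptin in the arcuate nucleus were measured with their receptor. None of 4 neuropeptide genes passed: *Npy* stood at 43.4 to 64.2 FPKM in Ctrl and 65.7 to 81.0 FPKM in LKO (log2FC 0.52, SE 0.15, adjusted p = 0.999), *Agrp* at 7.37 to 15.6 and 14.3 to 17.5 FPKM, and *Pomc* at 37.1 to 90.9 and 46.9 to 114 FPKM. With TPM 1 of the 4, *Agrp*, was higher past the unadjusted criterion. None of 9 genes of leptin receptor signalling passed either. *Cyp26b1* was lower (log2FC −0.66, SE 0.20), and *Angptl4* (0.79, SE 0.12) and *Lcn2* were higher past the unadjusted criterion. *Lcn2*, at 0.503 to 0.861 FPKM in Ctrl and 1.86 to 5.34 FPKM in LKO, entered the test through the LKO libraries alone, as did the pituitary gene *Lhb*. *Cyp26b1* lost its call without Ctrl 3 (−0.45) and in the fit of all 24 libraries (−0.66, adjusted p = 1 by limma). Of 6 pituitary markers tested 4 were also higher past the unadjusted criterion, 3 without *Lhb*, against 0.333% of all genes in either direction. So was *Plin4* of the white adipocyte list (0.87, SE 0.27). *Pomc* is in the pituitary list as well as among the neuropeptides, so that its values cannot be assigned to the arcuate nucleus. All 6 pituitary markers summed to 87.9 to 130 FPKM in Ctrl and 180 to 705 FPKM in LKO, and their part in these values was not tested.

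The difference between the tissues was tested itself, as a genotype-by-tissue interaction in 1 fit of the 24 libraries. Of the 10 genes, 4 passed at an adjusted p under 0.05, against 33.5% of 15849 genes: *Adipor2* (0.000364), *Adipor1* (0.000594), *Rbp7* (0.00167) and *Lepr* (0.0214). *Adipor2* was lower in LKO liver and higher in LKO iWAT and hypothalamus. *Lep* did not pass (adjusted p = 0.258), and nor did *Adipoq*, *Retn*, *Cfd*, *Apln* or *Rbp4*. With median-ratio scaling *Adipor1* and *Lepr* no longer passed, and with a pseudocount of 0.1 *Rbp7* and *Lepr* did not. The spread used for *Rbp7* came partly from liver and hypothalamus, where it was under 1 FPKM.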

How the data were processed

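Bulk RNA of 4 tissues was sequenced from 3 Ctrl and 3 LKO mice each (TruSeq RNA v2, paired-end). The authors deposited 1 joined table of FPKM per gene on mm10 with NCBI gene IDs, and per library a table of coverage, FPKM and TPM in the layout of StringTie. Coverage as deposited is unscaled, the deposited FPKM were scaled to each library's fragments and the deposited TPM to 1 sum. The submitters' processing notes name FastQC 0.11.5, Trimmomatic 0.32, HISAT2 2.0.5, Bowtie2 2.2.6, STAR 2.5.2b and StringTie 1.3.3b, without their roles. The strand setting is not given in the sources used here, and no count was used. FPKM per library depend on composition, which the scaling alternatives address.

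Groups came from the labels, and no library was left out. The joined FPKM were analysed as log2(FPKM + 1) with limma 3.58.1 in R 4.3.3 (lmFit, eBayes with trend) within each tissue, for genes of at least 1 FPKM in 3 of 6 libraries, with p-values adjusted by Benjamini-Hochberg over all genes tested. Ctrl tissues were compared in 1 limma fit of their 12 libraries, and genotype by tissue with an F test in a fit of all 24, which took tissues as independent. Ratios were tested by exact permutation. Library depth, which the tables do not state, follows from how coverage and FPKM relate in each. The scripts were tested on simulated data.

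As alternatives served a pseudocount of 0.1, no filter or a mean of 5 FPKM, TPM, median-ratio scaling, quantile normalization, a replicate block, 1 fit of all libraries, a fold of 2 and leaving out each library. The members and the gene lists were chosen with earlier results of these data known. Named were all 10 genes and, per list, those past the unadjusted criterion (in iWAT up to 4 and where none passed the 1 with the largest difference, elsewhere up to 3, of which at most 2 are given for liver), and per receptor the 3 genes with the highest correlation. Genes that passed under an alternative alone were named after their values were seen. Promoter windows came from RefSeq (GRCm38.p6), which held all 10 genes.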

Additional observations from a re-analysis of the deposited data

Results flagged for a closer look

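For 4 genes the change in LKO mice differed between the tissues by the interaction test of limma over 24 libraries. *Adipor2* (adjusted p = 0.000364) had a log2FC of −0.66 in liver, 0.55 in iWAT, 0.20 in hypothalamus and 0.02 in GM, with groups that did not overlap in the first 3. *Adipor1* (adjusted p = 0.000594) had a log2FC of 0.34 in liver and 0.26 in iWAT, against −0.09 in GM and −0.01 in hypothalamus, and in liver the median of all genes was at 0.33. *Rbp7* (adjusted p = 0.00167) was higher in iWAT by 1.78, against 0.41 in GM, and was under 1 FPKM in the other 2 tissues. *Lepr* (adjusted p = 0.0214) was higher in all 3 LKO livers at 0.945 to 1.59 FPKM, against 0.331 to 0.785 FPKM in Ctrl, and had a log2FC of −0.18 in hypothalamus. As the share of genes with such an interaction was 33.5%, these 4 of 10 are near the background.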

How the results depend on the processing

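In iWAT, 2 genes (*Lep* lower, *Rbp7* higher) passed the unadjusted criterion under every alternative, and *Adipor2* joined them without Ctrl 2, Ctrl 3 or LKO 1. The log2FC ranged from −1.76 to −1.03 for *Lep* and from 1.54 to 2.11 for *Rbp7*, with adjusted p of 0.0396 to 0.521 and 0.000104 to 0.356. The fit of all 24 libraries shares its spread with tissues where *Rbp7* was under 1 FPKM. The count past the adjusted criterion in iWAT was 1 (*Rbp7*) in that fit and 0 to 2 with a library left out. In liver it was 0 to 1 with a library left out, as was the count past the unadjusted criterion, which was 0 with a fold of 2. With TPM *Adipor2* did not pass in liver, and the 1 gene that did was *Lepr*, which entered that test mainly through its LKO libraries. The unadjusted count was 0 to 1 with a library left out in GM and in hypothalamus, the gene being *Rbp4*. The interaction count was 2 with a pseudocount of 0.1 and 2 with median-ratio scaling. The cause of these moves was not tested. Of the 9 neighbour pairs of receptors 3 to 5 passed, but with median-ratio scaling *Adipor2* was higher in Ctrl liver than in iWAT.

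Whether the replicate numbers pair the libraries was not settled. In no tissue did all 3 correlations of deviations between Ctrl and LKO of the same number exceed 0.1, and they ran from −0.13 to 0.35. Such a limit cannot exclude a pairing, since correlations of unlike numbers are not given beside them. Between tissues of 1 genotype the correlations of the same number ran from −0.19 to 0.39. All 3 exceeded 0.1 for Ctrl liver with iWAT (0.15 to 0.35) and LKO GM with hypothalamus (0.13 to 0.39), while LKO iWAT with GM had 0.10 to 0.15. The labels do not say whether tissues of 1 number came from 1 mouse, and the fits across tissues took them as independent. With a replicate block 1 gene passed the unadjusted criterion in GM (*Rbp4*, −0.76, adjusted p = 0.479 by limma), and the counts in iWAT (2), liver (1) and hypothalamus (0), the interaction count (4) and the neighbour count (4) did not move.

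Signs that turned belong to differences that did not pass. With quantile normalization *Retn* in iWAT was 0.04, and in liver *Cfd* was −0.25 and *Rbp4* 0.43. With median-ratio scaling *Adipor1* (−0.09) and *Cfd* (−0.13) in liver turned, as did *Rbp4* in liver (0.03) and *Adipor1* in hypothalamus (0.01) with TPM. With a library left out the log2FC ran in iWAT from −0.14 to 0.03 for *Retn*, −0.02 to 0.04 for *Adipoq*, −0.17 to 0.31 for *Rbp4*, −0.14 to 0.19 for *Apln* and −0.27 to 0.03 for *Ptpn1*. In liver it ran from −0.08 to 0.30 for *Cfd* and −0.16 to 0.02 for *Rbp4*. In GM it ran from −1.14 to 0.21 for *Adipoq*, −0.07 to 0.08 for *Adipor2*, −1.16 to 0.04 for *Retn*, −1.35 to 0.01 for *Cfd* and −0.19 to 0.02 for the log2 ratio of *Adipor1* to *Adipor2*. In hypothalamus it ran from −0.18 to 0.07 for *Apln* and −0.03 to 0.00 for *Adipor1*. Over all alternatives, 331 of the values of the 10 genes kept their direction and side of the unadjusted criterion, 7 crossed it upward, 3 fell short of it and 25 turned. Of the values of the list genes named, 397 kept both, 4 crossed upward, 37 fell short and 1 turned.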
